A study of Arabidopsis thaliana with 24 samples.

Results

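The response of nrp1 nrp2 seedlings to abscisic acid (ABA), the hormone that plants make under drought and salt stress, was read from 6 mRNA libraries, 3 with ABA and 3 without, out of 24 in the series. nrp1 nrp2 is an Arabidopsis thaliana mutant in the Columbia 0 background that carries lesions in a pair of NRP genes, and the labels give neither their loci nor their alleles. Whole seedlings grown on vertical plates were kept for 24 h with 5 µM ABA or without treatment. Wild type (WT, Columbia 0), with 3 libraries in each condition and the same treatment, served as the reference. The labels put the seedlings at 5 d before treatment, whereas the design text gives 6 d of growth and 1 d of treatment. Nothing in the labels ties the replicates to separately grown material, and the spread behind each p-value is that among these samples and may be technical. Since whole seedlings were used, fewer cells of a type and less RNA per cell cannot be told apart.

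ABA is perceived by the PYR/PYL receptors, which on binding it hold the clade A protein phosphatases 2C (PP2C) in check. SnRK2 kinases are then free to phosphorylate bZIP transcription factors of the ABF/AREB group and ABI5, and these bind the ABA-responsive element (ABRE) in promoters. Known outputs in seedlings are protective proteins of drying tissue, proline and raffinose-family sugars, wax and suberin, slower growth, and the breakdown of ABA itself. The series is about NRP, the PP6 phosphatase FyPP3 and growth that depends on auxin, and the 6 libraries let the ABA response be read where NRP genes are mutated.

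Each file gave a level for 32833 genes in FPKM, which scales the fragments of a gene by its length and by the size of the library. The 6 libraries held 16.8 to 20.9 M fragments, as read from the steps in the FPKM of short genes. Of all genes, 18430 reached 1 FPKM in at least 3 of the 6 libraries and were tested, and 13325 reached it in none. At the edge of this filter, 484 genes reached 1 FPKM in exactly 3 libraries and 478 in exactly 2. The edge also favours one-sided genes, since 103 genes passed only through the 3 libraries with ABA and 82 of them were called higher, while 88 passed only through the 3 controls and 59 of them were called lower. Each group held 1 library in which 12.9% to 15.4% of the summed FPKM came from plastid-encoded genes and 2 in which that share was under 0.1%. Replicate 1 was the plastid-rich library of both groups, and replicates 2 and 3 are called plastid-poor below.

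The mutation could be checked only in part, because 4 genes carry the name NRP1 or NRP2. AT3G27090, which encodes a protein with a DCD domain, was at 21.1, 20.4 and 18.7 FPKM in the nrp1 nrp2 controls and at 13.8, 13.4 and 12.7 FPKM with ABA. WT held 67.4 ± 1.73 FPKM (SD, n = 3) without ABA, and the log2 difference between the lines was −1.70 ± 0.09 (SE; adjusted p = 3.15e-10). All 6 mutant libraries thus lay below WT, and those with ABA lay below those without. AT5G42050, the related DCD gene, was at 69.7, 58.1 and 44.0 FPKM in the mutant controls and at 30.9 ± 1.15 FPKM in WT, a difference that did not pass the test (adjusted p = 0.0976). AT1G74560 and AT1G18800, which encode histone chaperones related to NAP1, differed from WT by 0.07 and 0.11 on the log2 scale without ABA (adjusted p = 0.999 for both). A reduced transcript was therefore found for 1 of the 4 candidate genes, and a lesion that leaves the transcript in place was not tested.

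Promoter sequences of 6 genes at the extremes of the response are shown first, because the ABRE is the element through which the pathway is known to act. Each is the stretch of 250 bases before the annotated gene start, written 5′ to 3′ along the gene, from RefSeq TAIR10.1. Capitals mark ACGTG, the ABRE core, or its reverse complement CACGT, and an overlapping pair forms the palindrome CACGTG. RD29B, KIN1, KIN2 and COR15A are classic targets of ABA and cold, LTP4 had the largest rise among named genes, and PYL6 had the largest fall among the ABA receptors.
RD29B: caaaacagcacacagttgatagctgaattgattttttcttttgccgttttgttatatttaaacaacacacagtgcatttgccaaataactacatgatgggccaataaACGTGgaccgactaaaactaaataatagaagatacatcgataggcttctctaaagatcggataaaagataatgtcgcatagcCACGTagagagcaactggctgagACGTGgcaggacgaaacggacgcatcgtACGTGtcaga
KIN1: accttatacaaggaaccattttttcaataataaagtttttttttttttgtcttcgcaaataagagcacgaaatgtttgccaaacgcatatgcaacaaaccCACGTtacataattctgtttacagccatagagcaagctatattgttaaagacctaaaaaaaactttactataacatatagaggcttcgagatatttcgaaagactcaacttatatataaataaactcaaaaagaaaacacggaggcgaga
KIN2: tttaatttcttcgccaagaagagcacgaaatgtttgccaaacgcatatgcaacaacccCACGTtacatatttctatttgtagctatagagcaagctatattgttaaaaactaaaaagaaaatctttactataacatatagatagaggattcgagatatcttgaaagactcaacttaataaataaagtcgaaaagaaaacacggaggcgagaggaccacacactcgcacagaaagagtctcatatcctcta
COR15A: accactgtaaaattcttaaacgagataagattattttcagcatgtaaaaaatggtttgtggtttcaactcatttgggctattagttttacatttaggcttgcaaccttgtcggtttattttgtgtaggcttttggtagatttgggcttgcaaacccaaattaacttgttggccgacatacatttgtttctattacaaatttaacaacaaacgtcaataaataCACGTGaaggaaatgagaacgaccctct
LTP4: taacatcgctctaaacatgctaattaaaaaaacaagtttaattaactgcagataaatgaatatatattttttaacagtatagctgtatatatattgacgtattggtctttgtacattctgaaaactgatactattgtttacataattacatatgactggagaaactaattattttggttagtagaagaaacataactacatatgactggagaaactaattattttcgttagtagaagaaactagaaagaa
PYL6: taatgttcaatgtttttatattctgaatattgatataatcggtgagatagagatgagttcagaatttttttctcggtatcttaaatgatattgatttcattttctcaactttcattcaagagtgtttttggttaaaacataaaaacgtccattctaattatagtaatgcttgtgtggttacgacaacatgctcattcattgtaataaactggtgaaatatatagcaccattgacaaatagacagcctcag
The RD29B stretch lies at chr5:21236771-21237020 on the plus strand and holds 4 matches. KIN1 at chr5:5209467-5209716 and KIN2 at chr5:5211469-5211718, both on the plus strand, are neighbours on the chromosome, and each holds 1 match. COR15A at chr2:17712331-17712580 on the minus strand holds the palindrome, which counts as 2 overlapping matches. LTP4 at chr5:23925958-23926207 and PYL6 at chr2:16846195-16846444, both on the minus strand, hold none. CCGAC, the DRE core, is not in capitals, and the RD29B stretch holds 1 match to it and that of COR15A 2. Not every such gene has the ABRE core. RD29A and COR15B held none between 250 bases before and 50 after the gene start, where RD29A held 4 matches to CCGAC.

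With ABA 589 genes were higher and 535 lower in nrp1 nrp2, or 3.2% and 2.9% of the genes tested (limma, adjusted p under 0.05, with all 24 libraries sharing 1 estimate of the spread). The rises were the larger changes. Among them 244 genes rose by at least 1 on the log2 scale of FPKM + 1, 68 by at least 2 and 26 by at least 3, with a median of 0.87. Of the falls, 179 reached 1, 19 reached 2 and 2 reached 3, with a median of −0.81. The 3 libraries with ABA did not overlap the 3 controls for 586 of the higher and 526 of the lower genes, where 17% of all genes tested showed no overlap. Every called gene had the same sign in the plastid-rich pair as in the plastid-poor libraries. The calls were made on these same values, so the lack of overlap and the shared sign largely follow from the call. They are no separate support for it. On the plastid-poor libraries alone 371 of the higher and 250 of the lower genes passed again. With only the 6 libraries in the fit 310 genes were higher and 238 lower, and without +ABA replicate 1, in the full fit, 327 were lower.

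The library nrp1 nrp2 +ABA replicate 2 stood apart from its group in a graded way. It was the farthest of the 3 from the controls for 365 of the 589 higher genes, and the nearest to them for 307 of the 535 lower genes. The summed level of 12 root tissue markers was 82.4, 110 and 138 FPKM in the controls and 41.1, 135 and 65.2 FPKM with ABA. For 12 root hair markers it was 13.6, 31.1 and 43.5 FPKM without and 9.97, 73.5 and 24.1 FPKM with ABA. None of the 24 markers was at 0 in any of the 6 libraries. Replicate 2 with ABA was thus the highest of its group in both lists, and replicate 1 the lowest. Without that library 445 genes were higher and 616 lower. The part that root RNA content plays in the results was not tested.

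**Figure D1:**
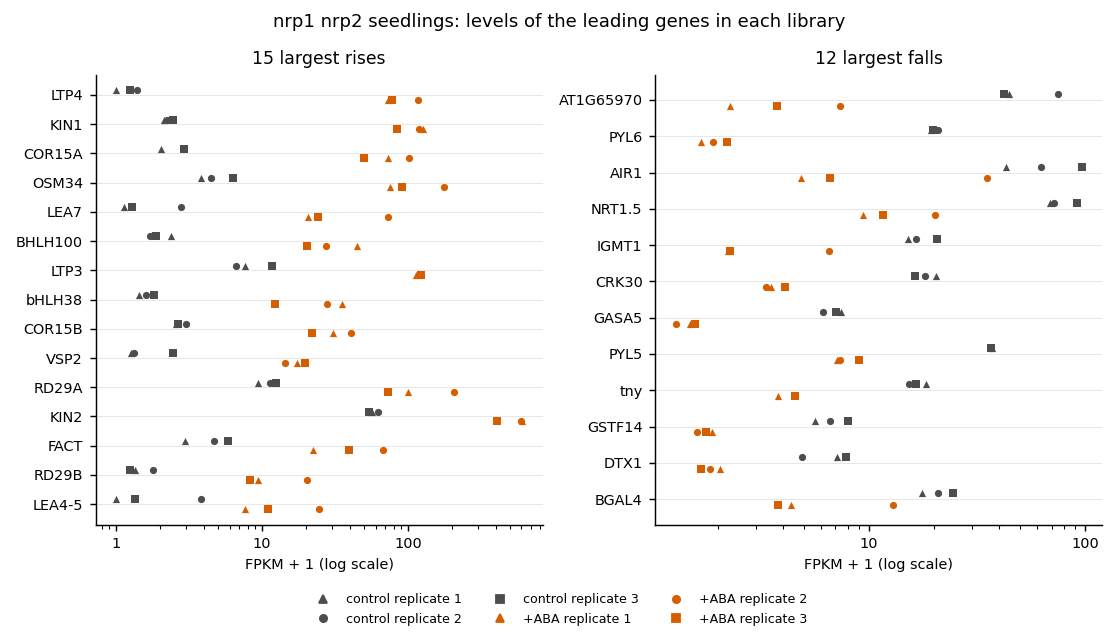
FPKM + 1 on a log axis for the 15 largest rises (left) and 12 largest falls (right) among called genes with a symbol, 1 point per nrp1 nrp2 library; grey points are controls, orange points are with ABA, and marker shape gives the replicate. The grey and orange points of each gene do not overlap, and replicate 2 with ABA lies nearest to the controls for AIR1 at 34.2 FPKM.

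The largest rise among named genes was that of LTP4, a lipid transfer protein of the epidermis, at 0, 0.39 and 0.25 FPKM without ABA and 72.1, 116 and 76.6 FPKM with it (log2 difference 6.18 ± 0.27, SE; adjusted p = 1.70e-11). Its neighbour LTP3 went from 6.62, 5.59 and 10.7 FPKM to 113, 123 and 122 FPKM (3.84 ± 0.25; adjusted p = 4.15e-09). The list of lipid transfer proteins had 4 of 6 tested members higher and none lower, with a median of 0.86 against −0.05 over all genes tested. This count and those of the lists below stand beside 3.2% of all genes tested called higher and 2.9% lower. LTP1 and LTP2, the abundant members, rose by less, and LTP1, at 600, 604 and 888 FPKM without ABA and 1248, 1743 and 962 FPKM with it, did not pass on the plastid-poor libraries alone (adjusted p = 0.125). LTP5 had a value of −0.61 (adjusted p = 0.371). The files do not say how reads shared by near-identical copies such as LTP3 and LTP4 were divided.

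The cold- and drought-induced protective genes moved together, with 10 of 11 higher, none lower and a median of 3.02. KIN1, a small stress-induced hydrophilic protein, was at 1.14, 1.23 and 1.44 FPKM without ABA and at 126, 119 and 83.1 FPKM with it (5.58 ± 0.25; adjusted p = 1.71e-11). KIN2, the next gene on the chromosome, started much higher, at 55.8, 61.6 and 53.4 FPKM, and reached 608, 591 and 409 FPKM (3.19 ± 0.21). With ABA, therefore, KIN2 remained the more abundant of the pair in every library, although KIN1 had the larger log2 difference. COR15A, a chloroplast protein that protects membranes in freezing, went from 1.05, 1.86 and 1.93 FPKM to 71.5, 101 and 49.0 FPKM (4.80 ± 0.33; adjusted p = 9.93e-09). Its neighbour COR15B rose by 3.46 ± 0.32. RD29A and RD29B, the hydrophilic proteins most used as reporters of the pathway, rose by 3.38 ± 0.28 and 3.01 ± 0.35. RD29B was at 0.35, 0.79 and 0.24 FPKM without ABA and at 8.39, 19.4 and 7.28 FPKM with it. COR413IM1, of the chloroplast inner envelope, rose by 2.77 ± 0.29 and RD20, a caleosin, by 1.93 ± 0.17. ADH1, alcohol dehydrogenase, was the member that did not pass (0.58; adjusted p = 0.566).

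Proteins of late embryogenesis (LEA), which accumulate in drying seeds, had 5 of 8 tested members higher and 1 lower. Of the 17 listed, 9 were too low to test. On the plastid-poor libraries alone 3 of the 5 rises were called again, and LEA14 was among those lost (adjusted p = 0.0989). LEA7 was at 0.13, 1.78 and 0.29 FPKM without ABA and at 19.5, 72.6 and 23.1 FPKM with it (4.38 ± 0.53; adjusted p = 1.36e-05), replicate 2 being the highest library in each group. LEA4-5 rose by 2.9 ± 0.51 and the unnamed LEA gene AT3G02480 by 3.16 ± 0.44. SAG21, a mitochondrial LEA protein linked to senescence, was lower with ABA (−0.96; adjusted p = 0.0125) but not on the plastid-poor libraries (adjusted p = 0.216) or without control replicate 2 or +ABA replicate 1. Dehydrins were less uniform. ERD10 and LTI30 were called, and RAB18, the dehydrin best known as an ABA marker, had a value of 2.14 that missed the threshold (adjusted p = 0.0528). The call of ERD10 was lost without control replicate 2 (adjusted p = 0.110), without +ABA replicate 1 (0.0688) or without +ABA replicate 2 (0.0946). LTI30 lost its call without control replicates 1 or 2 or +ABA replicates 1 or 2 (adjusted p = 0.0529 to 0.178). Storage proteins and oleosins of seeds were near 0, and 1 of 15 was high enough to test.

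Osmolyte genes changed too. P5CS1, the rate-limiting step of proline synthesis, was at 5.62, 8.08 and 9.18 FPKM without ABA and at 24.9, 39.5 and 35.4 FPKM with it (1.99 ± 0.24; adjusted p = 1.35e-05). ERD5, the proline dehydrogenase that breaks proline down, fell from 118, 110 and 113 FPKM to 48.0, 59.6 and 54.6 FPKM (−1.06 ± 0.12; adjusted p = 8.55e-06). The other 5 tested members of the proline list did not pass. Of the galactinol and raffinose synthases 3 of 5 were higher, namely GOLS4 (2.46 ± 0.17), GOLS1 (1.11 ± 0.19) and GOLS2 (1.00 ± 0.16), which make the galactinol from which raffinose is built. OSM34, an osmotin-like defence protein outside the lists, went from 2.8, 3.5 and 5.31 FPKM to 73.9, 177 and 90.06 FPKM (4.49 ± 0.40).

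Within the signalling pathway the called receptors were lower and the called phosphatases higher. Of 9 receptor genes tested, 4 were lower and none higher, with a median of −0.57. PYL6 was at 18.4, 19.95 and 18.7 FPKM without ABA and at 0.68, 0.90 and 1.21 FPKM with it (−3.38 ± 0.18; adjusted p = 2.74e-10). PYL5 went from 36.0, 35.6 and 35.5 FPKM to 6.14, 6.32 and 7.98 FPKM (−2.24 ± 0.18). PYL4, the most abundant of the 3, went from 115, 109 and 108 FPKM to 41.4, 33.1 and 42.2 FPKM (−1.49 ± 0.11; adjusted p = 1.20e-08). The 3 replicates of each group lay close together for these genes. PYL8, a receptor known from roots, was called at −0.57, but not without control replicate 1 (adjusted p = 0.0690) or control replicate 2 (0.0503). PYR1 was at 120, 56.6 and 59.7 FPKM without ABA and 45.9, 26.0 and 19.7 FPKM with it, and did not pass (−1.34; adjusted p = 0.0747). PYL2, PYL7 and PYL9 had values between −0.19 and 0.02. Summed over the list of 14, receptor transcripts ranged from 322 to 407 FPKM in the controls and from 140 to 184 FPKM with ABA.

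All 7 tested clade A PP2C genes had positive values and 5 were called higher, with a median of 1.48. HAI1, the member with the largest difference, went from 0.65, 0.80 and 0.82 FPKM to 7.08, 12.3 and 10.7 FPKM (2.62 ± 0.22; adjusted p = 9.47e-08). PP2CA, which acts in guard cells and seeds, went from 11.2, 11.1 and 12.1 FPKM to 40.9, 45.2 and 35.5 FPKM (1.73 ± 0.13). HAI2 and ABI2 rose by 1.87 ± 0.19 and 1.48 ± 0.20, and ABI1 by 0.83 ± 0.17, though ABI1 was not called when only the 6 libraries entered the fit. HAB1 and HAB2 had values of 0.34 and 0.38 (adjusted p = 0.144 and 0.0836). In contrast to both families, none of the 10 SnRK2 kinases was called, OST1 among them at 0.05 (adjusted p = 0.913).

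**Figure D2:**
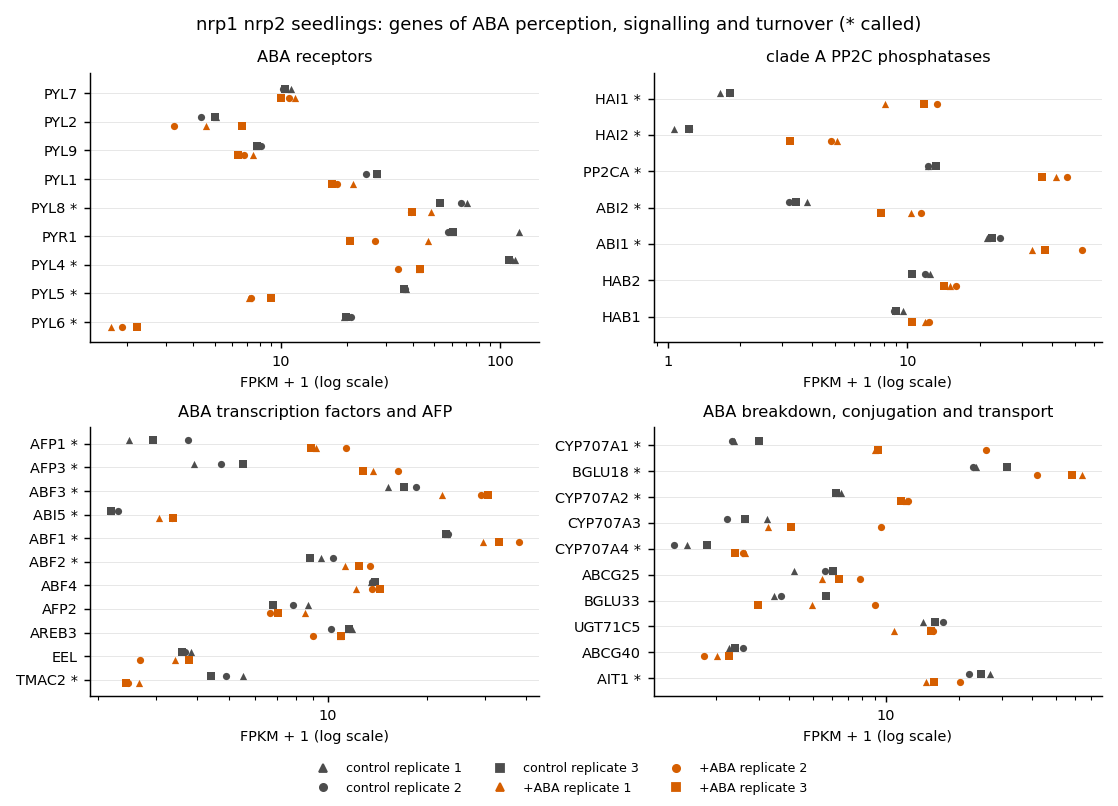
FPKM + 1 on a log axis for the tested genes of ABA perception, signalling and turnover in the 6 nrp1 nrp2 libraries, sorted by log2 difference within each panel; grey points are controls, orange points are with ABA, marker shape gives the replicate and a star marks a called gene. PYL4, PYL5 and PYL6 lie lower with ABA in all 3 libraries, and HAI1, HAI2, PP2CA and ABI2 higher.

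Among ABA transcription factors and their partners, 6 of 11 were higher and 1 lower. AFP1 and AFP3, which bind ABI5 and restrain it, had the largest rises (1.7 ± 0.15 and 1.61 ± 0.15), AFP1 going from 1.48, 2.76 and 1.94 FPKM to 8.21, 10.4 and 7.90 FPKM. TMAC2, a further member of the AFP family, moved the other way, from 4.50, 3.88 and 3.39 FPKM to 1.65, 1.46 and 1.42 FPKM (−0.97 ± 0.16; adjusted p = 0.000370). ABI5 itself was low and rose from 1.18, 1.3 and 1.18 FPKM to 2.06, 2.36 and 2.37 FPKM (0.55 ± 0.12; adjusted p = 0.00554). With only the 6 libraries in the fit the adjusted p of ABI5 was 0.0927. ABF1 rose by 0.54 ± 0.12 with the same limit, and ABF4 had a value of −0.04 (adjusted p = 0.937).

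Among genes of ABA breakdown, conjugation and transport 4 of 10 were higher and 1 lower, but on the plastid-poor libraries alone 2 were higher and none lower. CYP707A4 and BGLU18 were among those lost (adjusted p = 0.147 and 0.187), and BGLU18 was also lost without control replicate 1 or 2 or +ABA replicate 1 or 3 (0.0606 to 0.0875). CYP707A1, an ABA 8′-hydroxylase that starts its breakdown, was at 1.37, 1.32 and 2.01 FPKM without ABA and at 8.04, 24.9 and 8.26 FPKM with it (2.34 ± 0.32; adjusted p = 6.15e-05). CYP707A2 of the same family went from 5.51, 5.21 and 5.24 FPKM to 11.1, 11.4 and 10.6 FPKM (0.93 ± 0.12). Of the synthesis genes, 1 of 6 was called, NCED3, the stress-induced cleavage enzyme, from 0.56, 0.59 and 0.40 FPKM to 1.78, 3.51 and 1.83 FPKM (1.12 ± 0.18; adjusted p = 0.000376). The 5 others had values between −0.18 and 0.23.

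Stress transcription factors outside the core gave scattered calls. HB7, an HD-Zip factor known to be induced by ABA and drought, rose by 2.33 ± 0.28 and HB6 by 0.85 ± 0.15, the other 7 members of their list not passing. CBF3 and CBF2, the cold regulators that bind the DRE, rose by 2.07 ± 0.20 and 1.14 ± 0.22, CBF3 from 0.47, 0.42 and 0.56 FPKM to 5.97, 6.70 and 3.46 FPKM. Of 8 stress NAC factors 2 were higher and none lower, and NAC019, a regulator known from drought and jasmonate responses, rose by 1.45 ± 0.21 from 0.52, 0.39 and 0.19 FPKM to 4.01, 2.59 and 1.82 FPKM. In the heat shock list 4 of 8 were higher, among them HSFA6B (2.17 ± 0.24) and the small chaperone HSP18.2, which went from 3.21, 2.64 and 4.76 FPKM to 17.5, 15.3 and 14.6 FPKM (1.91 ± 0.20). HSP101, HSP70 and HSP90.1, the large chaperones of heat stress, had values of −0.37, −0.01 and −0.64 and were not called.

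Surface lipids had 4 of 14 higher, of which KCS2, a fatty acid elongase of suberin and wax (1.11 ± 0.16), was called in every setting in which it was tested. FACT, an acyltransferase of suberin-associated waxes outside the list, went from 1.95, 3.69 and 4.86 FPKM to 21.3, 66.2 and 38.2 FPKM (3.167 ± 0.46; adjusted p = 0.000130). CYP86A1, CYP86B1 and ASFT, which build the suberin polymer, had values between −0.35 and 0.03 and were not called.

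Jasmonate genes had 6 of 15 higher and none lower, with a median of 0.47. VSP2, a vegetative storage protein used as a jasmonate marker, went from 0.27, 0.32 and 1.47 FPKM to 16.4, 13.5 and 18.9 FPKM (3.41 ± 0.39; adjusted p = 6.56e-06), and its neighbour VSP1 rose by 2.54 ± 0.41. LOX2 and AOS, which act early in jasmonate synthesis, rose by 1.62 ± 0.28 and 0.94 ± 0.14. The 3 JAZ repressors tested in the list had values of 0.17 to 0.37 and were not called. JAZ4, outside the list, was called lower, at −1.24 in nrp1 nrp2 and −1.08 in WT. In the list of salicylic acid and immunity 1 of 9 was called, PAD4, a lipase-like immune regulator, which fell by 0.65 ± 0.12.

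The auxin lists gave few calls. None of the 21 Aux/IAA, 24 GH3 and SAUR or 18 auxin transport genes tested in the lists was called. Their medians were −0.13, −0.06 and 0.00, and 6.1% of all genes tested were called in either direction. SAUR36, outside the lists, was called lower (−1.09). Of 110 tested genes sorted as auxin-responsive by product name, 1 was higher and 6 were lower, beside 3.2% and 2.9% of all genes tested. The largest values among the Aux/IAA genes were −0.55 for IAA19 and 0.52 for IAA29 (adjusted p = 0.289 and 0.285). YUC5, a low auxin synthesis gene, fell from 1.61, 1.4 and 1.35 FPKM to 0.31, 0.35 and 0.58 FPKM (−0.80 ± 0.16; adjusted p = 0.00315), and its adjusted p was 0.143 on the plastid-poor libraries alone. In the list of auxin receptors, ARF and lateral root factors, AIR1, a cell wall protein induced by auxin in roots, was the only gene called of 14. It was at 42.2, 61.7 and 95.6 FPKM without ABA and at 3.84, 34.2 and 5.58 FPKM with it (−2.62 ± 0.60; adjusted p = 0.00872). Replicate 2 with ABA lay far above the other two, as it did for the sums of root tissue markers (41.1, 135 and 65.2 FPKM with ABA), and the part of root RNA in this was not tested. The adjusted p of AIR1 was 0.0688 on the plastid-poor libraries, 0.102 with only the 6 libraries in the fit, 0.0549 without control replicate 3, 0.0736 without +ABA replicate 1 and 0.0532 without +ABA replicate 3. None of the 9 PP6 and PP2A subunits was called. FYPP1 and FYPP3, the catalytic subunits of PP6, had values of −0.04 and 0.13, FYPP3 being at 15.6, 15.2 and 15.2 FPKM without ABA and at 16.5, 18.0 and 16.2 FPKM with it.

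In the list of type-A response regulators and cytokinin metabolism 6 of 13 were lower and none higher, with a median of −0.39. ARR6, a type-A response regulator that cytokinin induces, was at 10.6, 9.90 and 8.16 FPKM without ABA and at 4.53, 5.93 and 4.86 FPKM with it (−0.79 ± 0.15; adjusted p = 0.00211). It was the member called in every setting tried. ARR5 fell by 0.79 ± 0.15 with an adjusted p of 0.0912 on the plastid-poor libraries alone. GASA5, a cysteine-rich peptide of the gibberellin-regulated GASA family, fell from 6.45, 5.16 and 6.03 FPKM to 0.49, 0.28 and 0.57 FPKM (−2.25 ± 0.18; adjusted p = 8.02e-08), and no other of the 19 genes in its list was called.

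Of the wall-loosening genes, EXPA1, an expansin, lay between 80.1 and 98.2 FPKM without ABA and fell to 26.6, 33.9 and 35.9 FPKM (−1.46 ± 0.19), while EXLB1, an expansin-like gene, rose by 1.93 ± 0.29. The expansin list as a whole had 2 higher and 1 lower of 18 and a median of −0.02. In the cell cycle list 1 of 25 was called, TSO2, a ribonucleotide reductase subunit (0.46 ± 0.11), and it was not called on the plastid-poor libraries alone (adjusted p = 0.319) or without control replicate 1 (0.0521) or +ABA replicate 1 (0.0845). None of the 24 photosynthesis, 18 aquaporin or 10 clock genes tested was called, with medians of 0.20, 0.04 and −0.04. Nor was any of 9 root hair genes. In the XTH list, wall-remodelling enzymes, 1 of 14 was lower, in the flavonoid list 2 of 10 were higher, and in the stomatal and guard cell list 1 of 10 was higher, beside 3.2% of all genes tested higher and 2.9% lower, and none of these 4 calls held in every setting tried. XTH8 and XTH11, outside the list, were also called lower (−0.54 and −0.59).

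**Figure D3:**
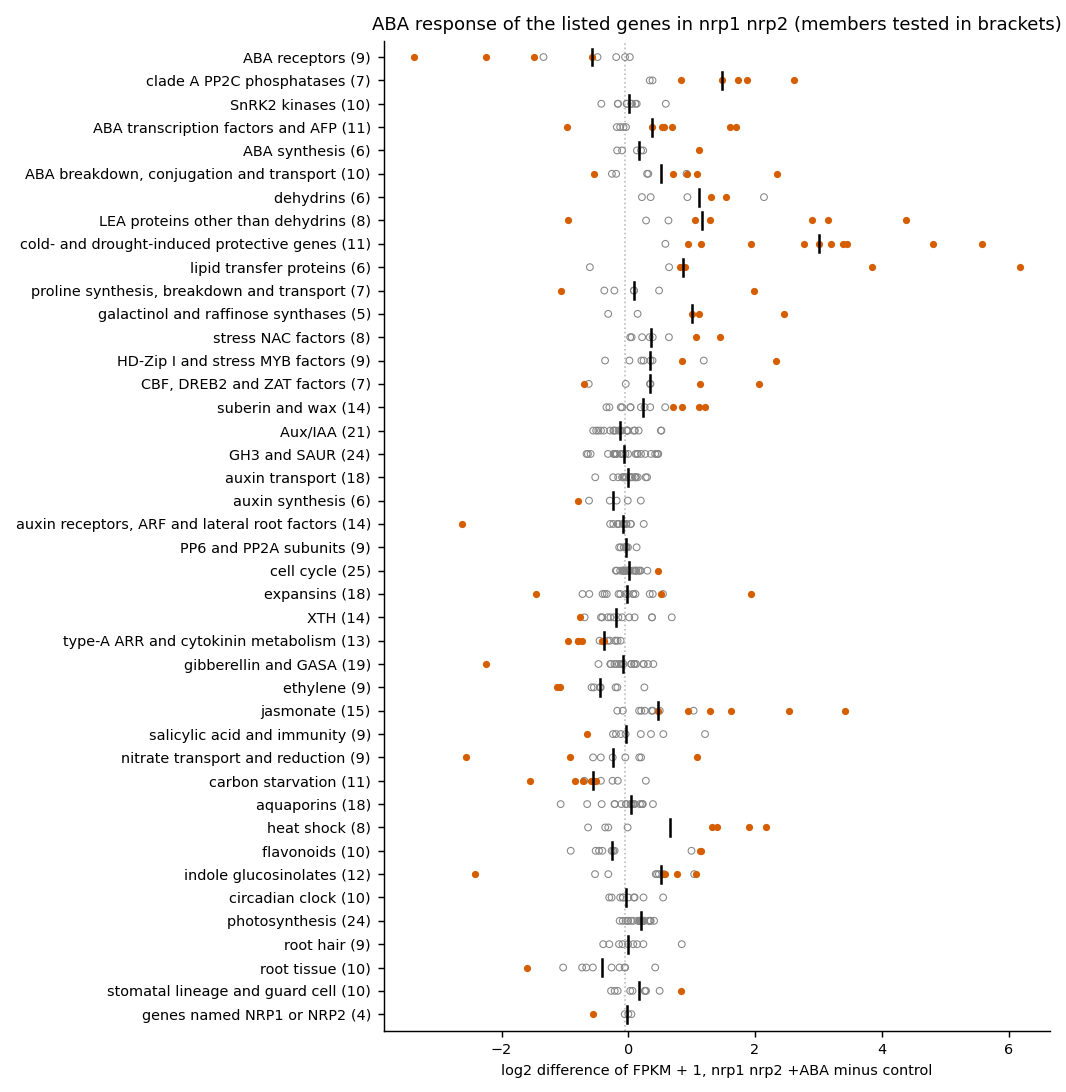
Log2 difference of FPKM + 1 in nrp1 nrp2, with ABA against without, for all tested members of each gene list with more than 1. Filled orange points are called genes and open grey points are not. The black bar is the list's median and the dotted line the median of all genes tested, −0.05. The cold- and drought-induced protective genes have the highest median of the lists, 3.02, while LTP4 lies furthest right at 6.18 and PYL6 furthest left at −3.38.

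Genes of nutrient transport and carbon starvation were also among those called. NRT1.5, which loads nitrate into the root xylem, was at 67.7, 70.7 and 90.09 FPKM without ABA and at 8.35, 19.1 and 10.6 FPKM with it (−2.56 ± 0.30; adjusted p = 9.35e-06). Its list, nitrate transport and reduction, had 1 higher and 2 lower of 9 tested. NRT1.7, which moves nitrate out of older leaves, rose by 1.09 ± 0.20, and the nitrate reductase NIA1 fell by 0.92 ± 0.20. PHO1, which loads phosphate into the xylem, was the called member of 10 in the root tissue list and fell from 17.3, 18.9 and 29.0 FPKM to 3.81, 11.7 and 5.38 FPKM (−1.60 ± 0.34; adjusted p = 0.00442). With only the 6 libraries in the fit the adjusted p of PHO1 was 0.0544. For both transporters replicate 2 was the highest library with ABA and still lay below every control. Of 11 genes of carbon starvation, 6 were lower and none higher, with DIN10, a raffinose synthase-like gene of dark-grown leaves, going from 212, 235 and 246 FPKM to 66.1, 87.9 and 80.7 FPKM (−1.56 ± 0.23; adjusted p = 0.000128) and TPS11 falling by 0.71 ± 0.12. These 2 of the 6 were called in every setting tried. SEN1, a marker of dark-induced senescence in the same list, had a value of 0.28 (adjusted p = 0.829).

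The largest fall was that of AT1G65970, which encodes thioredoxin-dependent peroxidase 2, from 43.5, 74.0 and 41.1 FPKM to 1.29, 6.39 and 2.78 FPKM (−3.70 ± 0.52; adjusted p = 7.22e-05). CRK30, a cysteine-rich receptor-like kinase, went from 19.5, 17.1 and 15.4 FPKM to 2.53, 2.35 and 3.11 FPKM (−2.32 ± 0.15). IGMT1, a methyltransferase that modifies indole glucosinolates, fell from 14.2, 15.5 and 19.7 FPKM to 1.23, 5.56 and 1.29 FPKM (−2.43 ± 0.38). MYB34, a regulator of indole glucosinolate synthesis, rose by 0.77 ± 0.14, and its list of 12 had 4 higher and 1 lower, beside 3.2% and 2.9% of all genes tested. Of these 5 calls 3 were lost when 1 library was left out, among them SUR1 and IGMT5, each without control replicate 1 (adjusted p = 0.0771 and 0.0598) or +ABA replicate 2 (0.0892 and 0.0604), and SUR1 also without control replicate 2 (0.0572). tny, an AP2-type factor, GSTF14, a glutathione transferase, and DTX1, a MATE efflux carrier, fell by 1.96 ± 0.24, 1.93 ± 0.32 and 1.82 ± 0.20. BGAL4, a beta-galactosidase, was called at −1.79 ± 0.37 but not on the plastid-poor libraries alone (adjusted p = 0.0778) or with only the 6 libraries in the fit (0.0714). Genes without a symbol moved as far. AT2G05510, a glycine-rich protein, rose from 5.69, 4.37 and 8.54 FPKM to 289, 381 and 163 FPKM (5.23 ± 0.60), and AT2G43140, a bHLH factor, fell from 11.3, 10.9 and 8.88 FPKM to 0.51, 0.82 and 0.55 FPKM (−2.80 ± 0.13; adjusted p = 1.79e-11).

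Of the 107 called genes that the naming rule selected, 25 overlap another annotated gene, mostly on the opposite strand. LEA7, bHLH38, COR15B, AT1G65970, AIR1, NRT1.5, DTX1 and BGAL4 are among them. No source used here states whether counting used strand, so reads of the partner gene could not be told apart from theirs.

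Some called genes lay side by side. Of the 589 higher genes, 107 lay next to another higher gene among those tested, forming 57 adjacent pairs, and of the 535 lower genes 69 did so, forming 37 pairs. The pairs are 0.311% and 0.202% of the 18343 adjacent pairs of tested genes. LTP3 with LTP4, KIN1 with KIN2, COR15A with COR15B, RD29A with RD29B, VSP1 with VSP2 and LTP1 with LTP2 were such pairs. AIR1 formed one with AT4G12545, which fell by 2.701.

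ABRE-like sequence was more frequent before the higher genes. In a window from 250 bases before to 50 bases after the gene start, ACGTG on either strand was found for 48.6% of the 589 higher genes, 27.7% of the 535 lower genes and 27.4% of the 18347 tested genes with a window. The longer ACGTGTC was found for 10.5% of higher, 2.8% of lower and 5.05% of all windows, and every such match contains the ABRE core. The DRE core, CCGAC, stood at 15.8%, 14.2% and 16.4%, and CATGCA, the RY core of seed genes, at 10.7%, 11% and 8%. TGTCTC, the auxin response element, stood at 16.6%, 14.4% and 13.6%. Of the 15 leading rises 8 held ACGTG, as did 3 of the 12 leading falls. These are counts of letters with no test, and the absence of a match before LTP4 or PYL6 says only that the letters are not in those stretches.

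**Figure D4:**
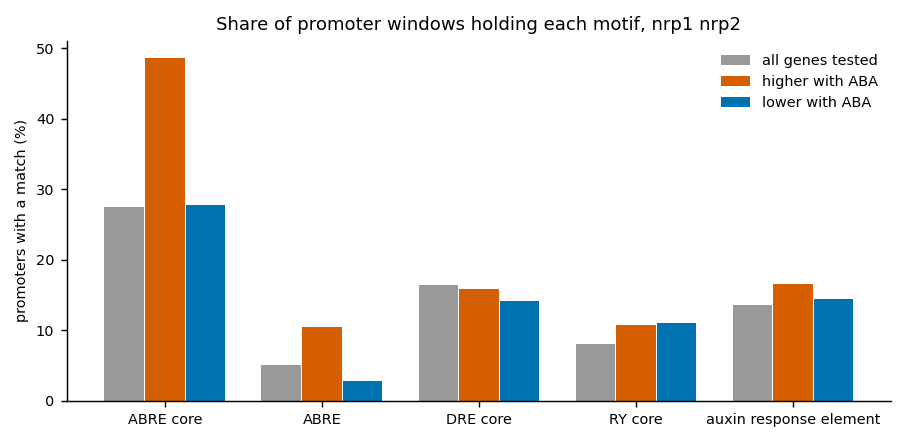
Percentage of promoter windows (250 bases before to 50 after the gene start) with at least 1 match to each motif on either strand, for all tested genes (grey), genes higher with ABA (orange) and genes lower with ABA (blue). The ABRE core stands at 48.6% before higher genes against 27.4% before all tested genes, whereas the 3 bars of the DRE core lie between 14.2% and 16.4%.

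Set against WT, the response was alike in sign. In WT, 796 genes were higher and 590 lower, 4.32% and 3.2% of the same 18430 genes and 7.52% together. Of the genes higher in nrp1 nrp2, 497 were also called higher in WT, which is 84.4% of the mutant's list and 62.4% of WT's. For falls the shared genes were 341, or 63.7% of the mutant's list and 57.8% of WT's. No gene was called in opposite directions, and 587 of the 589 rises and 532 of the 535 falls had the same sign in WT. Among the 497 shared rises the median was 0.95 in nrp1 nrp2 and 1.03 in WT, with 319 genes smaller in the mutant and 178 larger. Among the 341 shared falls the medians were −0.86 and −0.88, with 162 genes smaller in the mutant and 179 larger. Over all genes tested the median was −0.047 in nrp1 nrp2 and −0.008 in WT. Genes do not vary independently, and no test was run on these counts, so they do not show a weaker response. A gene called in one line and not in the other is not thereby shown to differ.

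**Figure D5:**
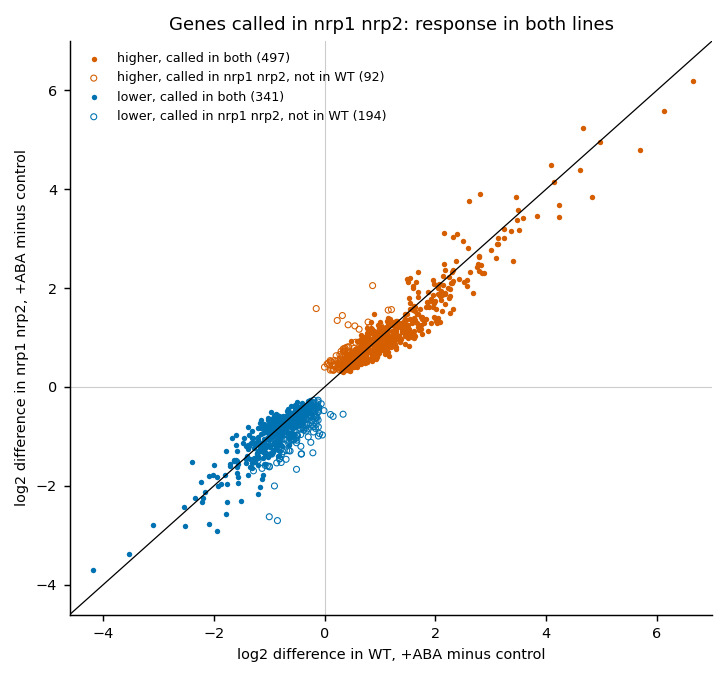
Log2 difference of FPKM + 1 with ABA in WT (horizontal axis) and in nrp1 nrp2 (vertical axis) for the 1124 genes called in nrp1 nrp2, orange for higher and blue for lower; filled points were called in both lines, open points in nrp1 nrp2 and not in WT, and the line marks equal values. Points run along the line from AT1G65970 at −4.17 and −3.70 to LTP4 at 6.65 and 6.18.

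The difference itself, tested as the response of nrp1 nrp2 minus that of WT in the same limma model, was called for none of the 18430 genes. At an unadjusted p under 0.05 there were 287 genes, and the median standard error of the difference was 0.21 on the log2 scale. None was called either in any of the other settings tried. The smallest p was that of AT3G27090, the NRP-named gene with reduced transcript, with −0.66 ± 0.12 (adjusted p = 0.4997). It fell with ABA in nrp1 nrp2 (−0.56 ± 0.09; adjusted p = 0.000255) and had a value of 0.11 in WT. CYP71A27, a cytochrome P450, followed with −1.06 ± 0.21 (adjusted p = 0.4997), at 3.89, 4.64 and 5.94 FPKM without and 4.11, 5.03 and 4.17 FPKM with ABA in the mutant, while WT rose by 0.97. TRX1 came next with −0.88 ± 0.21, at −0.55 in nrp1 nrp2 and 0.33 in WT. Its call in nrp1 nrp2 was lost with only the 6 libraries in the fit (adjusted p = 0.0912). The TRX1 call was also lost without control replicate 2 (0.109) or 3 (0.142). Leaving out +ABA replicate 1, 2 or 3 ended it as well (0.0784, 0.0526 and 0.0955). PR1 and NAC019 had differences of 2.39 ± 0.61 and 1.12 ± 0.30, NAC019 standing at 0.32 in WT. WRKY70 and TAT3, genes of salicylic acid and jasmonate signalling, had positive differences of 1.14 ± 0.32 and 2.03 ± 0.53. ORG1, with 2.12 in nrp1 nrp2 and 1.51 in WT, had a difference of 0.61 ± 0.19. NAMT1, a methyltransferase, had one of −0.63 ± 0.18. The adjusted p of the difference was 0.9999 for TRX1, PR1, NAC019, WRKY70, TAT3, ORG1 and NAMT1.

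Among the leading genes the differences were likewise not called (adjusted p = 1.00 each). LTP3 stood at −0.99 ± 0.36, COR15A at −0.90 ± 0.47, KIN1 at −0.55 ± 0.36 and KIN2 at −0.05 ± 0.29. BHLH100 stood at 1.09 ± 0.50, having gone from 1.38, 0.70 and 0.89 FPKM to 43.5, 26.6 and 19.4 FPKM in nrp1 nrp2 (3.89 ± 0.35) against a rise of 2.81 in WT. PYL6, PYL5, HAI1 and PP2CA, with standard errors of 0.13 to 0.22 on the response of either line, had WT values of −3.53, −2.33, 2.78 and 1.96. AIR1 had −2.62 in nrp1 nrp2 and −0.998 in WT, a difference of −1.62 ± 0.85.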

How the data were processed

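Messenger RNA of whole seedlings was sequenced in 24 libraries, 3 for each of 8 groups. The 6 nrp1 nrp2 libraries were compared, with the 6 of WT as reference. The deposited values are FPKM per gene, rounded by the authors to 2 decimals. Per the submitters' processing notes, Trimmomatic 0.30, HISAT2 2.0.1 and the TAIR10 build were used. Per the labels' protocols, mRNA was isolated by poly(A) selection or by Ribo-Zero, and it is not stated for any single library. How reads were counted, on which gene models and with what use of strand, no source used here states.

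FPKM was used as log2(FPKM + 1), which understates fold changes of low genes. Genes with at least 1 FPKM in 3 of the 6 nrp1 nrp2 libraries entered a linear model in limma 3.58.1 (R 4.3.3), with 1 mean per group over all 24 libraries, empirical Bayes moderation with an intensity trend, two-sided tests and Benjamini-Hochberg adjustment over 18430 genes. A gene is called at an adjusted p under 0.05. The model was tested on simulated data with known changes.

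Depth was read from FPKM steps of 1 fragment in genes under 400 bases. The depth chosen was that which brought most values near whole numbers. At that depth 100% of values lay within 0.1 of a whole number in the 6 libraries, which is no separate check of it. Deviations from the group mean correlated at 0.821, 0.253 and 0.141 between nrp1 nrp2 libraries of the same number and at 0.709, 0.545 and 0.478 in WT. The main model did not pair libraries by number, and a block for the number was an alternative. Replicate 1 is also the plastid-rich library. In nrp1 nrp2, libraries 2 and 3 correlated more across numbers (0.541 and 0.651) than within them, so pairing by number was not shown for these.

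The members, the 43 gene lists and the tests were chosen with earlier results of these data known. The rule for named genes took the 15 largest rises and 12 largest falls among called genes with a symbol, at least 5 FPKM in the higher group and no overlap. It added up to 4 called genes per list, by adjusted p, then 3 genes per direction without a symbol, NRP-named and FYPP genes, and up to 5 per direction for the difference between the lines. Other list members named in the text were chosen after their values were seen. Symbols, positions and promoters came from RefSeq TAIR10.1, which matched 32548 of 32833 identifiers. Alternatives were another pseudocount, filters, scalings, blocks for replicate number and library type, fits on fewer libraries and leaving out each library in turn.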

Additional observations from a re-analysis of the deposited data

How the results depend on the processing

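The count of 1124 genes called in nrp1 nrp2 fell to 548 (310 higher, 238 lower) with only its 6 libraries in the fit, to 669 (396 higher, 273 lower) on the plastid-poor libraries and to 669 of 13285 genes (369 higher, 300 lower) with a mean of at least 5 FPKM. With library type as a block the count rose to 1670 (818 higher, 852 lower). Leaving out each library in turn gave 806 to 1061 genes, 438 to 527 higher and 327 to 616 lower, the lowest number of falls without +ABA replicate 1. The replicate block gave 1252 and ended none of the 107 named calls, and with only the 6 libraries, an alternative chosen after seeing the data, it gave 747 (401 higher, 346 lower). Of the 107 named calls 74 held in each of the 16 settings in which the gene was tested, 16 of them being too low for the filter at a mean of 5 FPKM, and no called gene changed sign. For WT, 1386 became 885 (499 higher, 386 lower) with a mean of at least 5 FPKM. The WT count was 979 (503 higher, 476 lower) on the plastid-poor libraries and 2020 (1099 higher, 921 lower) with library type as a block. Leaving out each WT library gave 861 to 1175 in all, 541 to 647 higher and 305 to 569 lower, lowest without control replicate 3. The difference between the lines gave 0 genes in every setting, with 150 to 668 genes at an unadjusted p under 0.05. Among genes changed by at least 1 on the log2 scale, ACGTG stood before 55.3% of higher and 24% of lower genes, ACGTGTC before 14.3% and 1.68%, CATGCA before 15.2% and 15.6%, and CCGAC before 11.2% of lower genes. The causes were not tested. Depth limits genes near 1 FPKM.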

Other observations

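Genes of iron supply moved in nrp1 nrp2 with ABA. They were listed after their values were seen, so the counts are a description. Of 27 genes 21 were tested, 13 were higher and 4 lower, beside 3.2% and 2.9% of all genes tested, and 13 and 3 were called again on the plastid-poor libraries alone. The 4 bHLH factors that iron shortage induces were all higher, bHLH38 going from 0.44, 0.60 and 0.81 FPKM to 34.5, 26.8 and 11.4 FPKM (3.84 ± 0.34, SE; adjusted p = 2.77e-07), with bHLH39 at 2.82 ± 0.27, bHLH100 at 3.89 ± 0.35 and bHLH101 at 2.33 ± 0.25. The peptides IMA1, IMA2 and IMA3, known as signals of iron shortage, rose by 3.09 ± 0.36, 3.03 ± 0.40 and 2.17 ± 0.20. BTS, a ubiquitin ligase that restrains the iron response, rose by 1.38 ± 0.13, and OPT3, an iron transporter of the phloem, by 1.09 ± 0.21. FER1, a ferritin that stores iron, fell from 138, 92.1 and 150 FPKM to 35.6, 34.3 and 35.8 FPKM (−1.79 ± 0.14; adjusted p = 5.54e-08), and FER4 fell by 1.39 ± 0.16. FIT and IRT1, which act in iron uptake at the root surface, had values of −1.02 and −1.25 and were not called (adjusted p = 0.115 and 0.136). F6'H1 was called lower (−1.535; adjusted p = 0.0153), but not on the plastid-poor libraries alone (0.0853). With ABA, FIT was at 0.65, 3.34 and 0.66 FPKM, IRT1 at 0.45, 2.42 and 0.12 FPKM and F6'H1 at 0.41, 3.42 and 0.58 FPKM. Replicate 2 was thus the highest for each, and the part of root RNA in this was not tested. In WT bHLH38, IMA1 and FER1 stood at 3.45, 2.4 and −1.11, and none of the differences between the lines was called.

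Aliphatic glucosinolate genes, which make defence compounds from methionine, were also listed after their values were seen. Of 22 tested, 11 were higher and 1 lower, beside 3.2% and 2.9% of all genes tested. On the plastid-poor libraries alone 7 of the 11 and none of the lower were called again, with MYB76, MAM1, IPMI1 and FMO GS-OX1 lost (adjusted p = 0.0951, 0.247, 0.232 and 0.104). CYP79F1, which commits chain-elongated methionine to the pathway, went from 11.6, 11.9 and 16.2 FPKM to 34.7, 50.5 and 28.4 FPKM (1.43 ± 0.26; adjusted p = 0.00117). MYB29, a regulator of the pathway, rose by 1.04 ± 0.19, FMO GS-OX2 by 1.18 ± 0.17 and FMO GS-OX3 by 1.16 ± 0.20. MAM3, a chain-elongating synthase, fell by 1.12 ± 0.23, though its adjusted p was 0.0740 on the plastid-poor libraries alone. Of 36 families sorted by product name, 2 are given here for their values, beside 3.2% of all genes tested called higher and 2.9% lower. Of 43 WRKY factors none was higher and 6 were lower, and of 277 receptor-like kinases 4 were higher and 21 lower. Among the other families, MYB had 7 higher and 7 lower of 93. The product words caught only part of the ERF/AP2 family. None of the 35 genes so sorted was called, but CBF2, CBF3 and tny, called above, were not among them.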
